A study of Mus musculus with 6 samples.

Results

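The genes described here are 38 genes of DNA replication and repair, from the helicase subunits that open the DNA to the enzymes that supply nucleotides. They were followed in CD4+ T cells (helper T lymphocytes) of the mouse, grown in culture. A gene was represented by 1 probe set, the one with the highest mean log2 signal over the 6 arrays among those whose platform annotation gives that gene alone. All 38 genes had such a probe set, out of 18193 genes with 1 on the array, and all 38 passed the filter on dim probe sets. Bard1 passed it through the RA and Ro arrays alone. Of the chosen probe sets, 15 carry a suffix (_a, _s or _x) that marks probes shared by several transcripts or genes.

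A cell that is about to divide copies its DNA in S phase. In the G1 phase before it, the MCM2-7 helicase is loaded at origins with the help of Cdc6 and Cdt1. It is then activated by Cdc45, the GINS complex and Mcm10, and primase and the DNA polymerases follow it with the sliding clamp Pcna. Most of the genes for these proteins are transcribed under E2F factors in late G1 and S phase, so they are abundant in a proliferating T cell and scarce in a resting one.

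The study has 3 groups with 2 arrays each: Control, RA and Ro. The series title names retinoic acid, the active form of vitamin A, for which RA stands, and no label spells out Ro. The source was spleen together with mesenteric and peripheral lymph nodes, and the labels give no strain, age or sex and no dose of RA or Ro. A culture protocol is given for Control replicate 2 alone. It lasted 5 days with the cytokines hIL-2, hTGF-b1, mIL-6, mIL-1b, mIL-23, mIL-21 and mTNF-a, and with antibodies against mIL-4 and mIFN-gamma. The labels do not say whether the other cultures had it. Nor do they say that replicates are separate cultures, so a p-value here measures the spread of these arrays. Whether that spread is only technical within RA or within Ro is not stated. The Control arrays differed in sex-linked genes, and the Ro arrays in the genes described here (below).

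Each array measured 45101 probe sets, and array medians ranged from 16.3 to 23.7 in arbitrary signal units. T cell markers were present on every array: Cd4 lay between 463 and 1791, and the summed signal of 7 T cell markers between 14950 and 26380. Both Control arrays differed from the RA and Ro arrays in the sex-linked gene Xist, and Control replicate 2 differed across probe sets as well. Across probe sets the log2 values of Control replicate 2 correlated with those of the other arrays at 0.869 to 0.880, against 0.947 to 0.970 among the other 5 arrays. Its Y-linked gene Eif2s3y stood at 0.972, against 747 to 967 on the other arrays, which include Control replicate 1. Xist, the RNA of the inactive X chromosome, stood at 680 and 4326 on the Control arrays and at 13.1 to 22.7 on the RA and Ro arrays. The part of this difference in the comparisons with Control was not tested. Values are given as deposited signals per array and as log2(signal + 2.999) with each array centred on its median, which is the scale of every log2 difference. The small number of arrays limits the precision of all of them.

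The order of the arrays did not follow the labelled groups. On the centred scale the median of the 38 genes was 5.19 on Ro replicate 1, 4.77 on RA replicate 1, 4.22 on RA replicate 2, 3.74 on Control replicate 1, 3.55 on Ro replicate 2 and 3.49 on Control replicate 2. The Ro arrays held the highest and the second lowest place, and the RA arrays lay between them. Ro replicate 1 was the highest of all 6 arrays for 34 of the 38 genes, against 19.5% of all probe sets tested. For 31 of the 38 genes both RA arrays lay below Ro replicate 1 and above Ro replicate 2, against 8.52% of all probe sets tested. The lowest array was Control replicate 2 for 20 genes, Ro replicate 2 for 14 and Control replicate 1 for 4. In RNA from a whole culture, fewer cells that express a gene and less of its RNA per cell cannot be told apart.

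**Figure D1:**
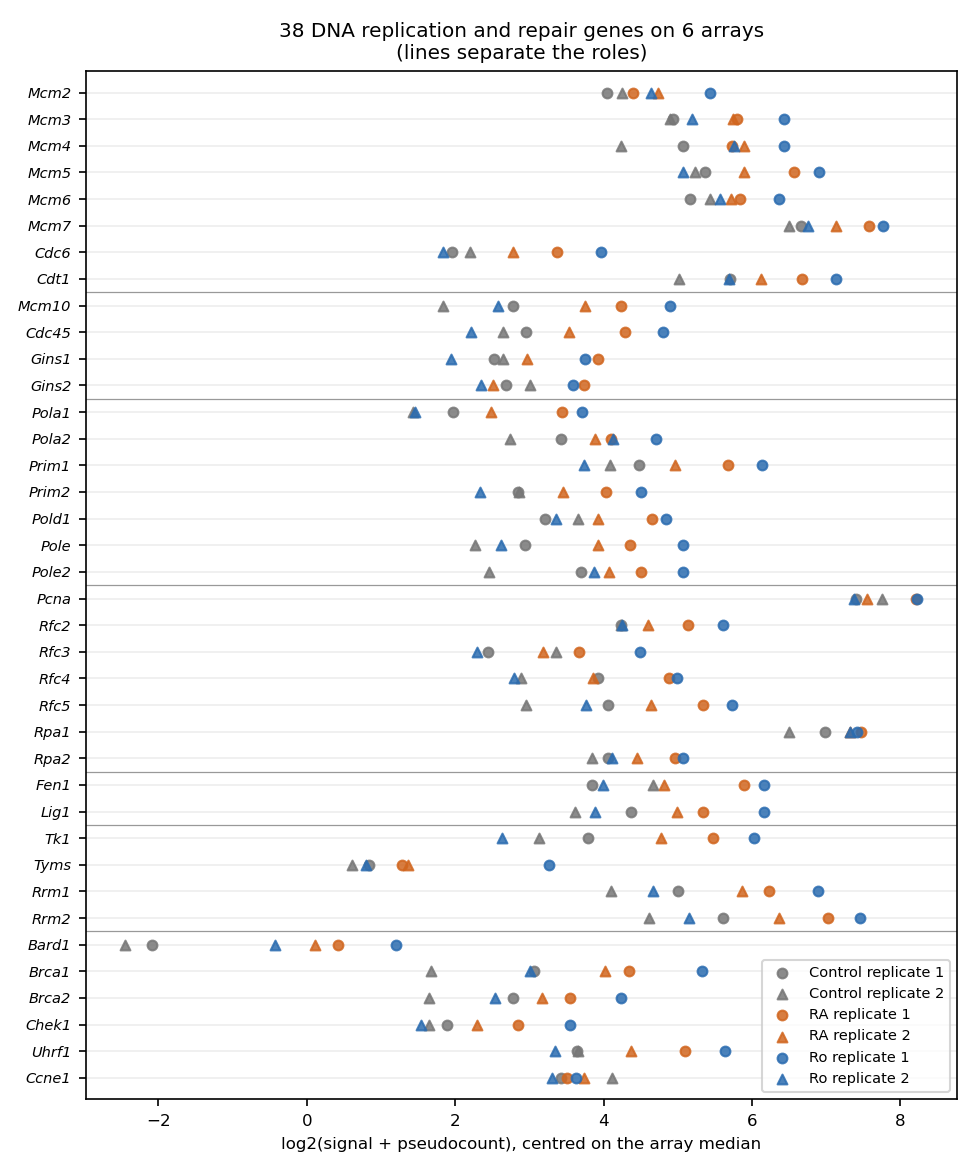
Each row is a gene, grouped by role, and each point is 1 array, with the centred log2 signal on the x axis, colours for the groups and shapes for the replicate number. In most rows Ro replicate 1 (blue circle) lies at the right, Ro replicate 2 (blue triangle) near the grey Control points, and the orange RA points between them; levels of different genes are not comparable.

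The licensing genes include the 6 subunits of the MCM2-7 helicase, and the gap between the Ro arrays differed among their chosen probe sets. Mcm5 had signals of 1103 and 718 in Control, 1953 and 1406 in RA, and 2740 and 817 in Ro (replicates 1 and 2 in that order, here and below). Its Ro replicate 2 signal lay below Control replicate 1, whereas its Ro replicate 1 signal was the highest of the 6. Mcm2 had 439 and 362 in Control, 433 and 632 in RA, and 989 and 608 in Ro. Mcm6 had 956 and 831 in Control, 1184 and 1247 in RA, and 1889 and 1158 in Ro. For these 2 subunits the Ro arrays differed by less than for Mcm5, with ratios of replicate 1 to replicate 2 of 1.63 and 1.63 against 3.36. The other tested probe sets gave -1.50 for Mcm2, -1.07 for Mcm6 and -1.91 and -1.98 for Mcm5 (Ro replicate 2 minus replicate 1, log2), against -0.79, -0.79 and -1.83 on the chosen ones. Mcm3, Mcm4 and Mcm7 had Ro ratios of 2.24, 1.51 and 1.89. Mcm4 rested on 897 and 360 in Control, 1097 and 1412 in RA, and 1982 and 1316 in Ro.

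Loaders that place this helicase on DNA differed between the Ro arrays as well. Cdc6, the ATPase that recruits the helicase to the origin complex, had signals of 100.2 and 85.6 in Control, 212 and 161 in RA, and 357 and 84.5 in Ro. Its Ro replicate 2 signal was the lowest of all 6 arrays. Cdt1, which delivers the helicase and is destroyed once S phase begins, had 1388 and 619 in Control, 2108 and 1654 in RA, and 3229 and 1262 in Ro. Across the 8 licensing genes the median log2 difference of Ro replicate 2 minus replicate 1 was -1.13.

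The activators of the helicase had a wider gap, with a median of -2.06 over 4 genes. Cdc45, the helicase cofactor, had 204 and 118 in Control, 402 and 273 in RA, and 638 and 111 in Ro, a ratio of 5.76 between the Ro arrays. Mcm10, which helps to start the helicase, had 180 and 65.7 in Control, 388 and 316 in RA, and 683 and 143 in Ro. Gins1 and Gins2, subunits of the GINS complex, differed, since not both of their RA arrays lay between the Ro arrays. Gins1 stood at 312 and 183 in RA and 307 and 91.0 in Ro, and Gins2 had 273 and 132 in RA and 273 and 122 in Ro. For both of them RA replicate 1 was the highest array on the centred scale.

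For the polymerase genes both RA arrays lay between the Ro arrays, with 1 exception. Pole, the catalytic subunit of the leading-strand polymerase, had 202 and 89.4 in Control, 422 and 360 in RA, and 766 and 146 in Ro. Pola1, the catalytic subunit gene of the priming polymerase, the primase genes Prim1 and Prim2, and the gene Pold1 of the lagging-strand polymerase had Ro ratios of 4.64, 4.97, 4.31 and 2.65. Pole2, the second subunit of the leading-strand polymerase, had a Ro ratio of 2.16. Pola2, the accessory subunit of the priming polymerase, was the exception, with 285 and 125 in Control, 350 and 349 in RA, and 599 and 423 in Ro. Here both Ro arrays lay above both RA arrays, which on the centred scale held for no other of the 38 chosen probe sets, and with uncentred values also for Rpa1. The other Pola2 probe sets gave 0.24 and -0.03 for RA minus Ro, against -0.43 on the chosen one.

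The clamp, its loader and the single-strand binding proteins ranged from wide to no visible gap. Pcna, the sliding clamp, had 4516 and 4134 in Control, 6135 and 4466 in RA, and 6895 and 4070 in Ro, so that its groups overlapped. The loader genes Rfc2, Rfc3, Rfc4 and Rfc5 had Ro ratios of 2.42, 4.43, 4.37 and 3.70. Rpa1, the large subunit of the single-strand binding protein, had 3370 and 1739 in Control, 3657 and 3787 in RA, and 3932 and 3918 in Ro. Its Ro ratio was 1.00, the smallest of the 38, and its partner Rpa2 had 1.83. Of the genes that finish lagging-strand fragments, the ligase Lig1 had 551 and 233 in Control, 832 and 753 in RA, and 1639 and 358 in Ro. Fen1, the flap nuclease, had a Ro ratio of 4.25.

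The nucleotide supply genes had the widest gap between the Ro arrays, with a median of -2.39 over 4 genes. Tk1, the thymidine kinase of S phase, had signals of 366 and 165 in Control, 916 and 647 in RA, and 1496 and 148 in Ro. Its Ro arrays thus held the highest and the lowest of the 6 signals, at a ratio of 10.1. Rrm1 and Rrm2, the subunits of ribonucleotide reductase, had 2720 and 616 and 4024 and 863 in Ro. In the other groups Rrm1 had 849.9 and 326 in Control and 1552 and 1385 in RA, and Rrm2 had 1296 and 465 in Control and 2700 and 1959 in RA. Tyms, which makes thymidylate, had 44.9 and 26.3 in Control, 47.1 and 58.1 in RA, and 219 and 39.5 in Ro. On this dim probe set Ro replicate 1 alone was high, and the other 5 arrays lay between 26.3 and 58.1. The other tested Tyms probe set disagreed, with an RA minus Control value of 1.46 (0.59 on the chosen one) and an RA minus Ro value of -0.02 (-0.71 on the chosen one).

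Among the repair and checkpoint genes, Brca1, which acts in repair by homologous recombination, had signals of 219.5 and 58.4 in Control, 415 and 384 in RA, and 917 and 194 in Ro. Its partner in a ubiquitin ligase, Bard1, was dim, with 3.31 and 0.539 in Control, 24.7 and 22.7 in RA, and 50.1 and 15.1 in Ro. Brca2, the recombination mediator, had a Ro ratio of 3.09. Chek1, the kinase of the replication checkpoint, had 96.4 and 57.5 in Control, 146 and 113 in RA, and 265 and 68.3 in Ro. Uhrf1, which brings the maintenance DNA methyltransferase to new DNA, had 330.3 and 240.0 in Control, 707 and 487 in RA, and 1136 and 246 in Ro. Ccne1, the cyclin that drives entry into S phase, did not follow the others on its chosen probe set, whose probes are of the shared kind (_x): it had 284 and 329 in Control, 233 and 313 in RA, and 282 and 238 in Ro. Its highest value lay on Control replicate 2, and its Ro ratio was 1.19. Its other probe set, without that suffix, disagreed, with -1.74 for Ro replicate 2 minus replicate 1.

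The promoters of these genes are shown because the members moved together by array and many of them are known E2F targets. RefSeq promoter windows (build GRCm38.p6, 250 bases before to 50 after a gene start) were at hand for 32 of the 38 genes, in 37 windows. The E2F words TTTGGCGC, TTTCCCGC, TTTGCCGC and TTTCGCGC were searched on both strands. They stood in 14 of these windows (37.8%), against 2.26% of all 32851 windows. The word CCAAT, a box bound by NF-Y, stood in 51.4% of the member windows and in 37.4% of all windows. In the list of mitotic genes read for comparison, 0 of 14 windows held an E2F word and 92.9% held CCAAT. Those mitotic genes were lower on Ro replicate 2 too (median -1.92), so the shared direction was also seen in genes without an E2F word. E2F and CCAAT words shared bases at 1 place in the member windows. The 14 genes with an E2F word had a median Ro replicate difference of -1.67 (from -2.28 to -0.79), and the 18 genes without one had -2.18 (from -3.40 to -0.09). The 2 ranges overlapped, and Tk1, with the widest gap, had no such word in its window. A match is a run of letters and does not show a bound factor. The stretches below lie before the gene start, 5′ to 3′ on the gene's strand, with E2F words and CCAAT (or its reverse complement) in capitals. In Mcm5 and Mcm6, 2 E2F words share bases. The stretch of Tk1 is shown for contrast.
Mcm5, chr8:75109336-75109397 (+): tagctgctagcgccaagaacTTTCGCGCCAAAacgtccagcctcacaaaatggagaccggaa
Mcm6, chr1:128359715-128359835 (-): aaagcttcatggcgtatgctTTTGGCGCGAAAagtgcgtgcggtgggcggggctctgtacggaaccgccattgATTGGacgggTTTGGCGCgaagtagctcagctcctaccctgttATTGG
Cdc6, chr11:98907993-98908050 (+): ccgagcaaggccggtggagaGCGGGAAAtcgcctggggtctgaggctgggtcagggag
Pola1, chrX:93632256-93632313 (-): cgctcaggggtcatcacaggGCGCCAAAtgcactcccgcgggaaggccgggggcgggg
Bard1, chr1:71103144-71103201 (-): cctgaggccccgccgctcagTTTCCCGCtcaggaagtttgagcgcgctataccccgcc
Brca2, chr5:150522433-150522490 (+): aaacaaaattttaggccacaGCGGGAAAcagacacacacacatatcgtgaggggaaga
Uhrf1, chr17:56304108-56304165 (+): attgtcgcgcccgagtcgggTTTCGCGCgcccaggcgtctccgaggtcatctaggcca
Tk1, chr11:117826015-117826114 (-): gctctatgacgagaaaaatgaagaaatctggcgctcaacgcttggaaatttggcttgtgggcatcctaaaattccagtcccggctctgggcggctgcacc

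The comparison of replicate numbers sets array against array within a group and has no replicate check of its own. In Ro, all 38 genes were lower on replicate 2 than on replicate 1, with a median log2 difference of -1.90 (3.73-fold), against 0.05 over all probe sets tested. Past 2-fold lower were 30 of the 38 genes (78.9%), against 7.58% of all probe sets tested. In RA, 34 of the 38 genes were lower on replicate 2, with a median of -0.52. Past 2-fold lower in RA were 3 genes (Gins2, Fen1 and Rfc4, 7.89%), against 5.22% of all probe sets. In Control, 26 genes were lower on replicate 2 and 12 higher, with a median of -0.28, which was -0.75 with uncentred values. Past 2-fold lower in Control were 5 genes (Pole2, Rfc4, Rfc5, Brca1 and Brca2, 13.2%), against 17.6% of all probe sets. None of the 38 was past 2-fold higher there, against 13.2% of all probe sets. The gap between the arrays of Ro had a median size of 1.90 over the 38 genes and of 0.36 over all probe sets tested. The other probe sets of the same genes showed the same direction, with 41 of 45 tested lower on Ro replicate 2. The 4 others belonged to Brca1, Rpa1 and Pola2, at 0.08 for Brca1, 0.03 for Rpa1 and 0.72 and 0.70 for Pola2.

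**Figure D2:**
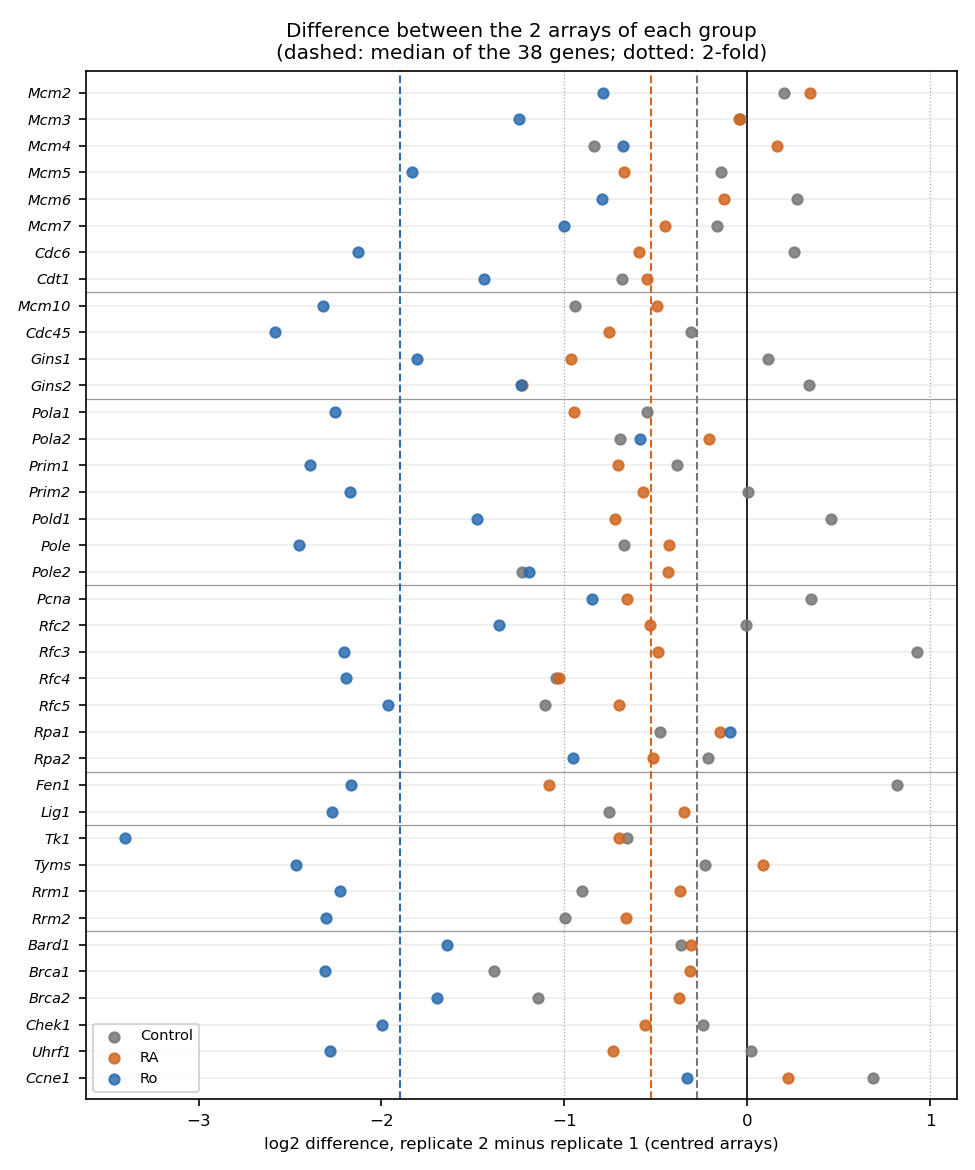
Each row is a gene and each point the log2 difference of replicate 2 minus replicate 1 within Control, RA or Ro, with dashed lines at the medians of the 38 genes and dotted lines at 2-fold. All 38 Ro points lie left of 0 around -1.90, whereas the RA and Control points lie around -0.52 and -0.28.

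Some other values differed between the Ro replicates too. Markers of macrophages and monocytes were lower on Ro replicate 2 for 5 of 5 genes. Their summed signal was 979 and 350 in Ro, 467 and 420 in RA, and 1635 and 123 in Control. Markers of mast cells and basophils summed to 5422 and 3533 in Ro, 1453 and 1247 in RA, and 3615 and 33.8 in Control. On the centred scale 5 of 5 were lower on Ro replicate 2, with a median of -0.37. Of these, Cma1 and Fcer1a were nearly level, at -0.01 and -0.04. Their deposited signals were higher on replicate 2, at 491.6 and 518 for Cma1 and 396.5 and 409.5 for Fcer1a. On Control replicate 2 all 5 mast cell and basophil markers lay below the array median of 16.25, from 3.30 (Cma1) to 15.6 (Cpa3). The summed T cell markers stood at 22290 and 26380 in Ro, so they were not lower on replicate 2. The part of these cells in the result was not tested. The ratio of 3′ to 5′ control probe sets, a sign of RNA quality, was 1.08 and 1.09 for Actb and 0.803 and 0.833 for Gapdh on the Ro arrays, and 1.20 and 0.986 on Control replicate 2.

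The comparison of RA with Ro asks whether these genes differ between the cultures with those labels. In the limma fit of all 6 arrays 0 of 38 genes passed an adjusted p of 0.05, and 0% of all probe sets did, with 0 members and 600 of 29531 probe sets at an unadjusted p under 0.05. The median log2 difference of RA minus Ro was 0.15, with 27 genes above 0 and 11 below, against -0.12 over all probe sets tested. Single differences ran from -0.71 (SE 0.74) for Tyms to 0.80 (SE 0.99) for Tk1, and both of these were smaller than their standard errors. The number above 0 was 21 with uncentred values and 32 with quantile normalization. No gene had both RA arrays above both Ro arrays, against 9.29% of all probe sets, and Pola2 alone had both below, against 28.0%. For all 38 genes the gap between the Ro arrays was larger than the difference between the RA and Ro means. The gap between the RA arrays was larger than that difference for 32 genes, and the gap between the Control arrays for 27. A gap between single arrays varies more than a difference of means, and the share over all probe sets was not computed. The sign depended on which Ro array was kept: the median was -0.76 without Ro replicate 2, with 0 genes above 0, and 1.08 without Ro replicate 1, with 36 above 0. It was -0.13 without RA replicate 1 and 0.39 without RA replicate 2.

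Set side by side by replicate number, the direction turned. It must do so where both RA arrays lie between the Ro arrays, as for 31 of the 38 genes. Between the replicate 1 arrays, RA was below Ro for 35 genes, with a median of -0.51. Only Gins1, Gins2 and Rpa1 were above 0 there, at 0.18, 0.15 and 0.05, whereas 43.2% of all probe sets were. Between the replicate 2 arrays, RA was above Ro for 36 genes, with a median of 0.78, against 33.1% of all probe sets. Tk1 had -0.55 between the replicate 1 arrays and 2.14 between the replicate 2 arrays. Pola2 (-0.24) and Rpa1 (-0.01) were the 2 genes not above 0 between the replicate 2 arrays. The 2 differences each compare 1 array with 1 and were not tested, and the labels do not say that arrays with the same number belong together.

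**Figure D3:**
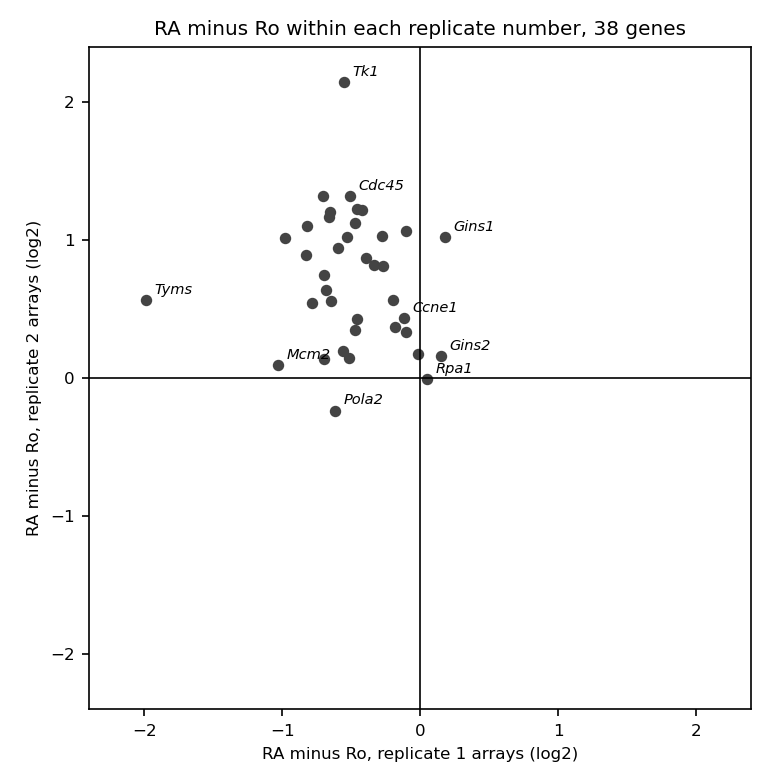
Each point is a gene, with the log2 difference of RA minus Ro between the replicate 1 arrays on the x axis and between the replicate 2 arrays on the y axis. Most points lie in the upper left part, below 0 for replicate 1 (median -0.51) and above 0 for replicate 2 (median 0.78).

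The comparison of RA with Control asks the same of those cultures, with Control replicate 2 as the array that stands apart. In 33 of the 38 genes the lower RA value exceeded the higher Control value, against 21.2% of all probe sets, and no gene had both below, against 9.82%. The exceptions were Gins2, Pcna, Rfc3, Rfc4 and Ccne1, whose groups overlapped. The median log2 difference was 0.98 with 37 genes above 0, against 0.12 over all probe sets, and Ccne1 alone was below 0, at -0.14 (SE 0.35). Its other probe set gave 0.47, and without Control replicate 2 the chosen one gave 0.20. Bard1 had 2.53 (SE 0.62), but its Control arrays were below the filter, and the pseudocount sets this value: it was 3.29 with a pseudocount of 1 and 1.02 with the median of all values. Brca1 had 1.81 (SE 0.78), and 1.84 and 1.64 with those pseudocounts. Mcm10, Tk1, Rrm2, Pole, Rrm1 and Rfc5 lay between 1.68 and 1.48, but the other Mcm10 probe sets gave -0.20 and -0.31.

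None of these differences passed the test. The limma fit called 0 of 38 genes and 0% of all probe sets, with 3 members (Mcm4, Pola2 and Bard1) and 725 of all probe sets at an unadjusted p under 0.05. The adjusted p of the members ran from 0.864 to 0.933. With 1 Control array, groups overlap less often over all probe sets too. Without Control replicate 2, 36 genes were higher in RA without overlap, against 40.1% of all probe sets, and the median was 0.84. Without Control replicate 1, 34 genes were higher, against 48.6% of all probe sets, and 1 was lower, with a median of 1.04. In that fit limma called 3361 probe sets (11.6%) and 2 members, Mcm4 and Rpa1 (5.26%), on the assumption that the lone Control array varies like the other groups. On Control replicate 2 the macrophage and mast cell marker sums were the lowest of the 6 arrays and the Actb and Gapdh ratios the highest, and their part in the result was not tested. The comparison of Ro with Control uses the same Control arrays.

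For Ro minus Control the median was 0.83 with 37 genes above 0, against 0.22 over all probe sets. The groups did not overlap for 11 genes, all higher in Ro (28.9%), which is near the 30.9% of all probe sets, and none was lower, against 9.51%. These 11 genes were Mcm2, Mcm3, Mcm4, Mcm6, Mcm7, Pola2, Pole2, Rfc2, Rpa1, Rpa2 and Bard1. With quantile normalization 5 genes did not overlap, 4 higher, against 17.3% of all probe sets, and 1 lower. With scaling to a trimmed mean 6 did not, 5 higher, against 13.5% of all probe sets, and 1 lower. The values were 1.44 (SE 0.39) for Mcm4, 1.39 (SE 0.55) for Pole2 and 1.33 (SE 0.37) for Pola2. Other tested probe sets of these genes gave 0.97 for Mcm4, but -0.33 for Pole2 and -0.24 and 0.10 for Pola2. The limma fit called 0 of 38 genes and 0% of all probe sets, with 5 members (Mcm2, Mcm4, Pola2, Pole2 and Bard1) and 2521 of all probe sets at an unadjusted p under 0.05. The adjusted p of the members ran from 0.520 to 0.942. Without Ro replicate 2, 37 genes lay above Control without overlap, against 43.4% of all probe sets, and the median was 1.78. Without Ro replicate 1 the median was 0.015, with 11 genes higher, against 46.1% of all probe sets, and 14 lower. The share of all probe sets that was lower there was not computed. With 1 Ro array, groups overlap less often over all probe sets too. Without Control replicate 1, which left Control replicate 2 as the only Control array, the median was 0.88. Bard1 had 2.65, but its Control arrays were below the filter. With a pseudocount of 1 it had 3.405, and with the median of all values 1.154.

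**Figure D4:**
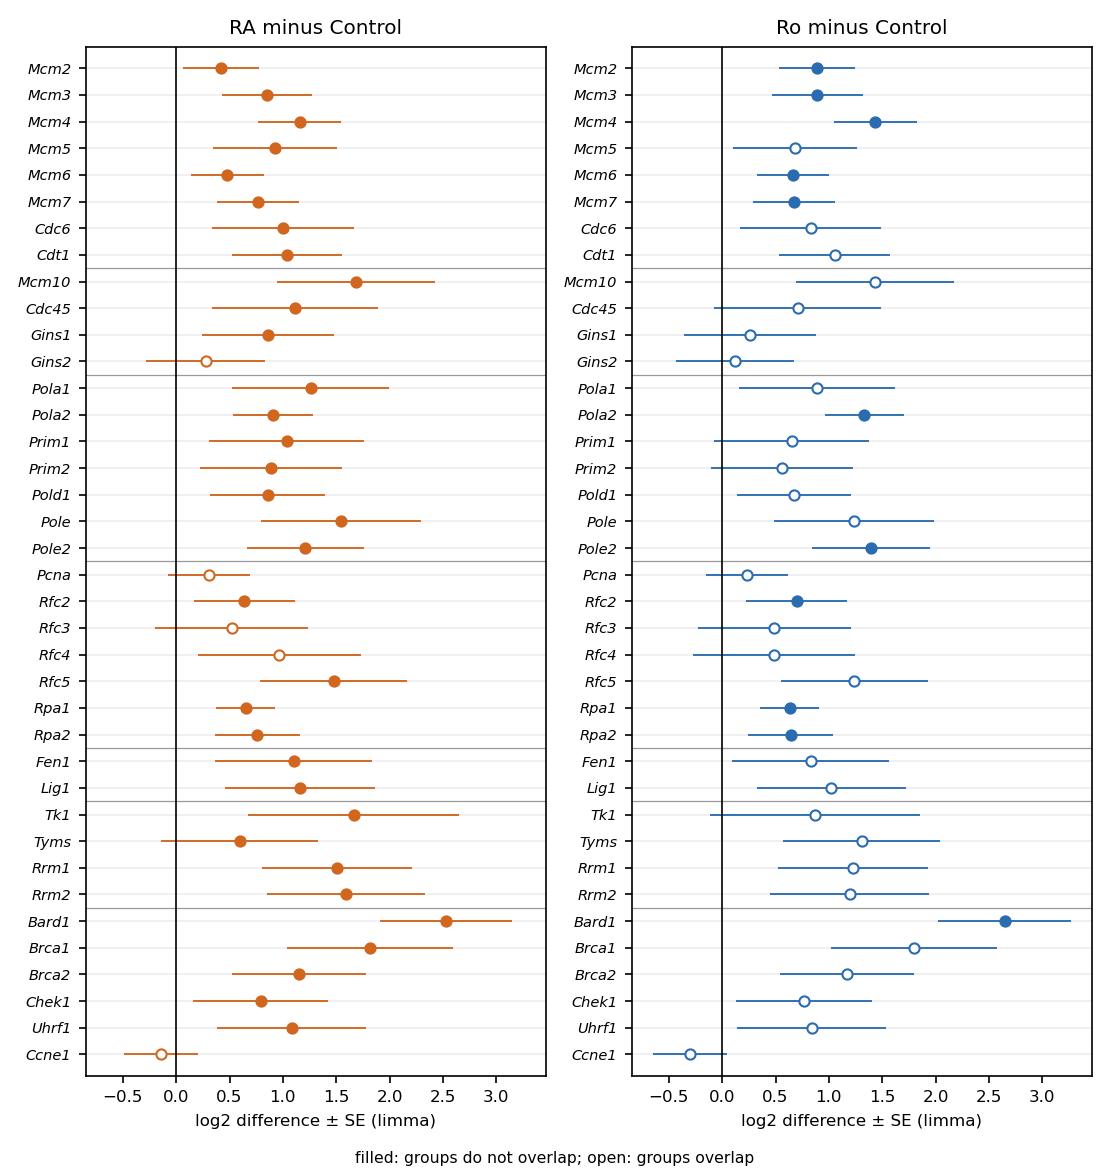
Each row is a gene, with the log2 difference from Control on the x axis and bars of 1 standard error from limma, for RA at left and Ro at right; filled points mark groups that do not overlap. In RA 33 of 38 points are filled and in Ro 11, and Ccne1 lies left of 0 in both on its chosen probe set.

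Genes of the same pathways outside the 38 were read from 8 further lists. None of their members was called by limma in any of the 3 comparisons. Of 28 other replication genes, 25 were lower on Ro replicate 2 (14 of them past 2-fold), 24 were above 0 for RA minus Control, and 19 were higher in RA without overlap, against 21.2% of all probe sets. Gmnn, the inhibitor of Cdt1, had 1338 and 410 in Ro, and the topoisomerase Top1 had 863 and 975. The 17 genes of homologous recombination and the Fanconi pathway were all lower on Ro replicate 2 (median -1.30) and all above 0 for RA minus Control (median 1.12). Rad54b, a DNA translocase of recombination, had 39.2 and 4.80 in Control, 97.7 and 65.4 in RA, and 152 and 20.8 in Ro. All 7 genes of S phase chromatin were lower on Ro replicate 2 too (median -1.23), among them the histone chaperone Asf1b with 2139 and 396.

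Of 21 genes of mismatch repair, excision repair and end joining, 11 were lower on Ro replicate 2, 0 of them past 2-fold, with a median of -0.03. For RA minus Control, 16 of the 21 were above 0, with a median of 0.14 against 0.12 over all probe sets. Higher without overlap were 7, against 21.2% of all probe sets, and lower 2, against 9.82%. Prkdc, the kinase of end joining, had 404 and 526 in Ro, and the mismatch gene Msh6 had 786 and 562. Of 10 other genes of nucleotide supply, 5 were lower on Ro replicate 2, among them Dut, which removes dUTP, with 1433 and 547, whereas the purine synthesis gene Gart had 299.5 and 411. Of 11 genes of the damage checkpoint and the p53 response, 6 were lower there. For RA minus Control 10 of them were above 0 (median 0.48), and 7 were higher without overlap, against 21.2% of all probe sets. Cdkn1a, an inhibitor of cyclin-dependent kinases, had 439.7 and 2250 in Control, 695 and 649.9 in RA, and 1199 and 210 in Ro, so its highest signal was on Control replicate 2. Of 30 genes of the G1 to S step, 26 were lower on Ro replicate 2 (median -0.87), among them the mitotic kinase gene Cdk1 with 2484 and 806, whereas the repressor E2f4 had 193 and 305.

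The mitosis list, read for comparison, was like the 38 genes in Ro and unlike them in Control. All 15 mitotic genes were past 2-fold lower on Ro replicate 2 (median -1.92). All 15 were also past 2-fold lower on Control replicate 2 than on Control replicate 1 (median -2.68), whereas 5 of the 38 replication and repair genes were (median -0.28). Plk1, a kinase of mitosis, had 687 and 85.9 in Control, 1303 and 874 in RA, and 1255 and 332 in Ro. Pcna, by contrast, had 4516 and 4134 on the Control arrays. For RA minus Control the mitotic genes had a median of 2.21 against 0.98 for the 38. Whether the difference between the lists exceeds chance was not tested.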

How the data were processed

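RNA of cultured cells was hybridised to 6 oligonucleotide arrays. The authors deposited 1 linear intensity for each probe set and array. MAS5 computed it, per the submitters' processing notes, and its version and scaling target are not stated in them. Groups and replicate numbers come from the sample titles (RO and Ro were taken as 1 group). The 64 control probe sets were left out, and gene names come from GEO's platform annotation. Probe sets had to exceed their array's 40th percentile on 2 or more arrays to enter the tests, which left 29531. The log2 scale is log2(signal + 2.999), and each array was centred on its median. The pseudocount, the 20th percentile of the deposited intensities, shrinks the differences of dim genes. The fit used limma 3.58.1 in R 4.3.3 (two-sided test, intensity trend, all 6 arrays, no block, 3 residual degrees of freedom) with Benjamini-Hochberg adjustment over all probe sets tested, at a threshold of 0.05, and the script was tested on simulated data. The members and lists were chosen with earlier results of these data known, so no test over the members was made. All 38 members were to be named. Values on every array were fixed for 17 of them and for up to 3 further members in each direction per comparison, and up to 4 genes were to be named per further list, by size of the RA minus Ro difference. Alternatives were other pseudocounts, scalings, filters, probe set choices and fits, and leaving out each array.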

Additional observations from a re-analysis of the deposited data

How the results depend on the processing

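No member was called by limma in any of the 3 comparisons under the settings that kept all arrays of a comparison. The median of the 38 genes was 0.05 to 0.34 for RA minus Ro, 0.83 to 1.02 for RA minus Control and 0.51 to 0.90 for Ro minus Control, and that of Ro replicate 2 minus replicate 1 was -1.96 to -1.63. Quantile normalization moved the median of all tested probe sets from -0.12 to -2.0e-04 for RA minus Ro and from 0.22 to 0.02 for Ro minus Control. The 1 gene without overlap between RA and Ro became 2 with uncentred values, with quantile normalization and with scaling to a trimmed mean (lower in RA in the first, higher in the others), and 0 with gene means. Over all probe sets, 16% with quantile normalization and 19.3% with the trimmed mean were higher in RA than in Ro without overlap. The 11 genes without overlap between Ro and Control became 5 with quantile normalization and 6 with the trimmed mean. The share of all probe sets higher in Ro without overlap went from 30.9% to 17.3% and 13.5%. Over all probe sets, limma called 8 for RA minus Ro in the fit of those 4 arrays. With a replicate block in the fit of only the 2 groups compared, added after seeing the data, it called 148 for RA minus Ro and 5 for RA minus Control, none of them members; with a replicate block on all 6 arrays it called 0. The numbers were not taken to pair the arrays, since the labels state no pairing. Over all probe sets tested, the differences of replicate 2 minus 1 correlated at 0.249 between RA and Ro. Those of Control correlated at 0.005 with RA and -0.029 with Ro. Over the 38 genes the values were 0.47 between RA and Ro, -0.06 between Control and RA and 0.23 between Control and Ro. Leaving out each array in turn gave medians of -0.76 to 1.08 for RA minus Ro, 0.69 to 1.31 for RA minus Control and 0.015 to 1.78 for Ro minus Control, 1 to 35, 33 to 37 and 11 to 37 genes without overlap, 0 to 5, 0 to 3361 and 0 to 5182 probe sets called, and 0, 0 to 2 and 0 to 5 members called, in that order. Where a lone array was left in a group, limma assumed that it varies like the other groups. The cause of these changes was not tested. Dim signals limit Bard1, whose Control arrays lie near the background of the array.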

Other observations

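Among the transcription factors and cyclins of the G1 to S step, the gap between the Ro arrays ran from wide to narrow. The genes below were named after their values were seen. E2f8, a repressor that acts late in S phase, had signals of 188 and 28.0 in Control, 418 and 356 in RA, and 981 and 112 in Ro. Ccne2, the second cyclin E, had 31.0 and 45.9 in Control, 62.4 and 31.6 in RA, and 178 and 22.4 in Ro. E2f2 had 617 and 160 in Control, 832 and 579 in RA, and 1367 and 568 in Ro. Cdc25a, the phosphatase that activates the kinase partner of cyclin E, had 427 and 502 in Control, 444 and 381 in RA, and 555 and 365 in Ro.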
